A study of Homo sapiens with 12 samples.

Results

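The fatty acid synthesis and oxidation genes comprised 47 genes, found by their symbols among the 28395 genes whose RNA-seq counts were deposited for 4 lines of HCT116, a human colorectal cancer cell line. They were grouped by role into de novo synthesis (4 genes), chain elongation (4), desaturation (4), activation by acyl-CoA synthetases (4), the carnitine shuttle (4), mitochondrial oxidation (11), peroxisomal oxidation (5), PPAR regulators (4), a group of 3 holding a fuel switch kinase, a binding protein and a lipid droplet protein, thioesterases (2) and triglyceride synthesis (2). All 47 had a row in the table, and 46 reached the level needed for a test, the exception being PPARGC1A.

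Cells build fatty acids from citrate carbon. ACLY makes cytosolic acetyl-CoA, acetyl-CoA carboxylase makes malonyl-CoA, and FASN assembles palmitate, which ELOVL enzymes lengthen and SCD and the FADS enzymes desaturate. To be burned, a fatty acid is first joined to CoA by an ACSL enzyme and carried into mitochondria on carnitine, through CPT1A, SLC25A20 and CPT2. Each turn of β-oxidation then uses a dehydrogenase, a hydratase, a second dehydrogenase and a thiolase, and peroxisomes run a related pathway for very long and branched chains in which the first step is an oxidase. The nuclear receptors PPARA and PPARG bind fatty acids and switch on many of these genes, and colonocytes are known as cells that rely on fatty acid oxidation, chiefly of butyrate.

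HCT116 cells carried an empty pcDNA vector (EV), an EHF expression plasmid (EHF), a CDX1 retrovirus (CDX1) or both (EHF+CDX1), with 3 libraries of polyA RNA per line and 12 in all, from cells grown in DMEM-F12 with 10% serum. EHF is an ETS transcription factor of epithelia and CDX1 a caudal-type homeobox factor of the intestine, and the comparisons ask how each factor, and both together, changed transcription. By the methods, the EV and EHF lines came from geneticin-resistant clones, the CDX1 line from cells sorted for GFP, and the EHF+CDX1 line from geneticin-resistant clones of the CDX1 cells after EHF transfection. Each group is thus 1 line, so transgene and line cannot be told apart, and the labels do not say whether its libraries came from separate cultures. The study describes its RNA-seq replicates as biological but counts fewer than were deposited, so the p-values measure only the spread between these libraries, which may be technical. Mean EHF levels were 299, 19312, 12.3 and 18708 CPM, which are read counts scaled to a common library size with TMM factors, in EV, EHF, CDX1 and EHF+CDX1 cells, and mean CDX1 levels were 0.00613, 0.0167, 525 and 5419 CPM, so the transgenes matched the labels but CDX1 differed in level between the lines that carry it.

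Total counts ranged from 13523007 to 74186741 per library, and 3 counts, the limit that a count of 0 allows, equalled 0.0375 to 0.207 CPM, which covers counting error only. EV replicate 3 stood apart from the other EV libraries: the chi-square of its counts against theirs, divided by the degrees of freedom, was 242 and 221, where EV replicates 1 and 2 gave 3.56 and pairs within the other lines 2.75 to 34.4. Of the 46 members tested, it held the lowest EV value for 28 and the highest for 17. Its level was below the mean of EV replicates 1 and 2 for 10 of 11 mitochondrial oxidation members, with a median log2 difference of -0.61, and above it for all 4 elongation and all 4 desaturation members. These places were not counted over all genes, so they cannot be read as a trait of the members. Counts of members that involve EV cells are also given without EV replicate 3. So are single values of members where its absence ended a call or moved a called fold by over 1.5 times. All 12 libraries share 1 estimate of the spread of each gene. EV replicate 3 thus also enters the standard errors of comparisons without EV cells. Epithelial markers (EPCAM, CDH1, keratins and claudins, 8 of 8 with reads in every line) summed to 5340 to 5772 CPM in EV, 4702 to 4831 in EHF, 2930 to 3521 in CDX1 and 4994 to 5259 in EHF+CDX1 libraries. Most of these reads in every library were of KRT8, KRT18 and KRT19. The 8 moved in both directions in CDX1 against EV cells, with log2 fold changes from -1.59 to 0.89. By the 1.5-fold test described below 1 was higher and 4 were lower, with 21.3% and 23.3% of all genes. Leukocyte markers summed to 81.6 to 93.4 CPM in CDX1, 41.4 to 46.0 in EHF+CDX1 and at most 15.2 CPM in EHF and 11.1 in EV libraries, mostly from CD68 in CDX1 cells (76.8 to 88.0 CPM) and from CD68 and LYZ in EHF+CDX1 cells (17.8 to 19.4 CPM of LYZ), while the defining leukocyte gene PTPRC stayed at or below 0.152 CPM. Fibroblast markers summed to 168 to 220.1 CPM in CDX1 and 34.5 to 76.7 in EV libraries, nearly all of it COL1A1 (167 to 219 CPM in CDX1), with DCN and LUM at most 0.0759 CPM, and endothelial markers summed to at most 2.04 CPM. Their part in the results was not tested.

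A gene was said to rise or fall where edgeR's glmTreat test placed its change beyond 1.5-fold at an adjusted p below 0.05, with p-values adjusted over all 15853 genes tested. In EHF against EV cells 4 of 46 members rose and 1 fell (ACSL5, CPT1A, ACOX2 and PDK4, and CRAT), where 5.68% of all genes tested rose and 2.65% fell. In EHF+CDX1 against EV cells 4 rose and 2 fell (ACSL5, ACOX2, PDK4 and ACOT2, and CRAT and PPARG), with 7.3% and 3.13% of all genes. The CDX1 line differed most from EV: 8 members rose and 14 fell, where 21.3% of all genes rose and 23.3% fell, and the median log2 fold change was -0.37 over the members against -0.03 over all genes. Between EHF+CDX1 and EHF cells ACOT2 alone was called, as a rise, and it entered the tests only through the EHF+CDX1 libraries, with 2.49% of all genes rising and 0.189% falling. Fitted to the libraries of these lines alone, 2 members rose, ACOT2 among them, and 2 fell, with 578 rises and 207 falls among 15256 genes. Between EHF+CDX1 and CDX1 cells 16 members rose and 6 fell, with 22.3% and 18.7% of all genes. Fitted to the libraries of these lines alone, the same 16 and 6 passed, with 3845 rises and 3336 falls among 15271 genes. ACOT2 is among these rises and those of EHF+CDX1 against EV cells, where the filter likewise fixed its direction. The interaction, which is the log2 fold change of EHF+CDX1 over CDX1 cells minus that of EHF over EV cells, was positive for 11 members and negative for 7, with 20.2% and 18% of all genes. In each of these comparisons the share of members called stands beside that of all genes and was not tested against it, and the comparisons against EV share the EV libraries. In bulk RNA, fewer cells that express a gene and less RNA of it per cell cannot be told apart. Leaving out EV replicate 3 changed the counts of rises and falls to 4 and 4 in EHF, 9 and 18 in CDX1 and 3 and 3 in EHF+CDX1 cells, with 9.51% and 3.46%, 26.3% and 24.8%, and 11.2% and 4.28% of all genes. The interaction was then positive for 15 and negative for 8 members, with 23.3% and 24.4% of all genes. When libraries were scaled by their totals alone, the median of all genes in CDX1 against EV moved from -0.03 to -0.37. The members then split into 4 rises and 21 falls, where 2273 of 15853 genes rose and 5115 fell. Directions in CDX1 cells are therefore relative to the TMM scaling. The split of EHF+CDX1 against CDX1 cells became 19 and 3 on that scale, with 5074 rises and 1765 falls over all genes. That of the interaction became 19 and 5, with 4435 and 1970 over all genes.

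**Figure D1:**
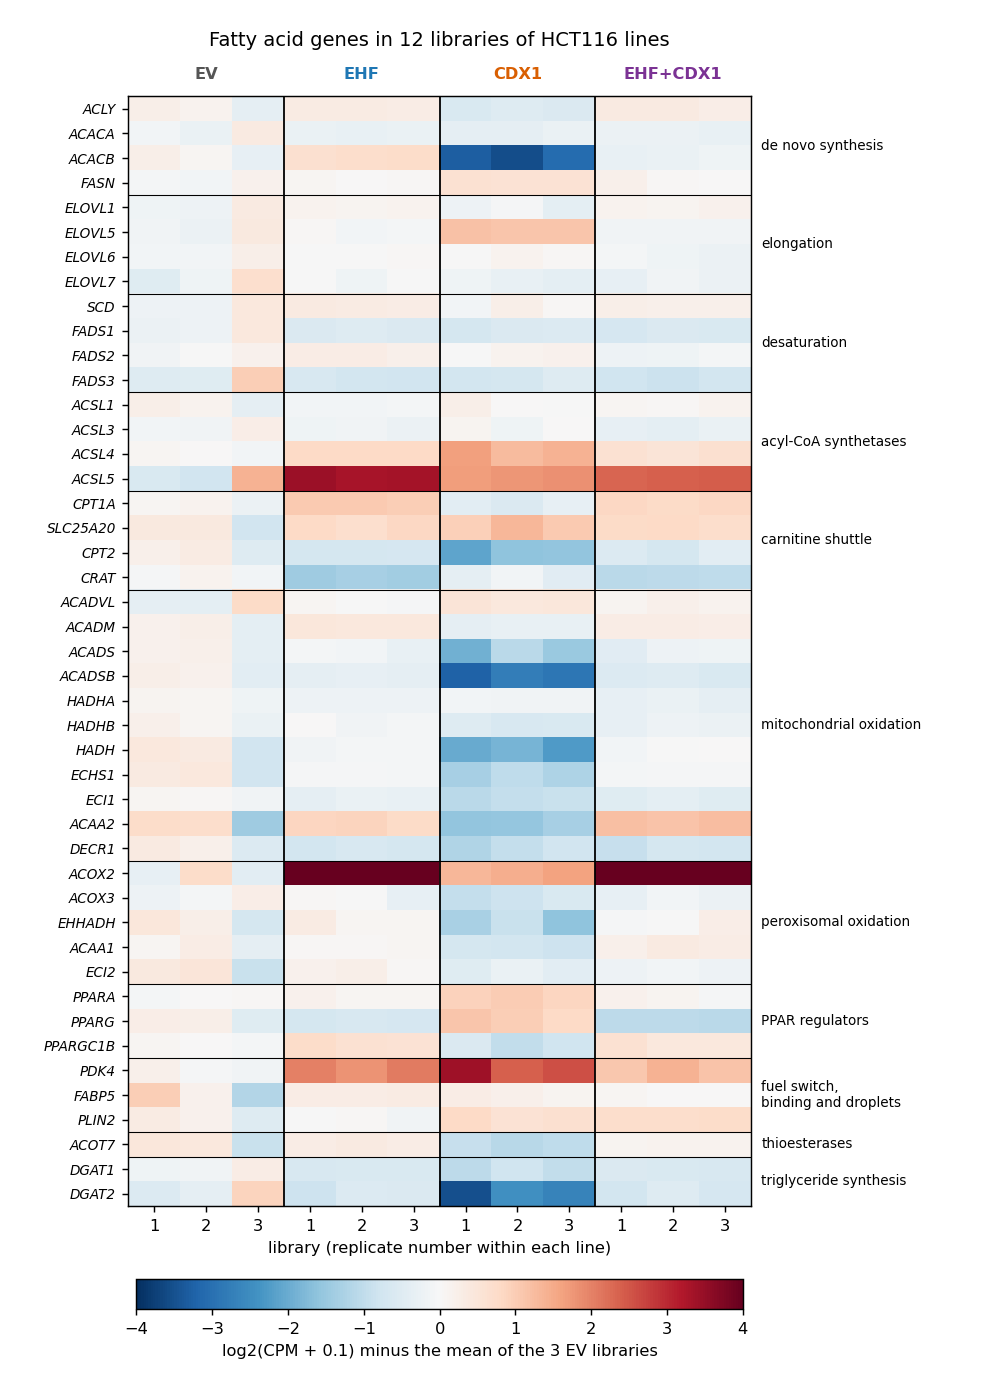
Heat map of 45 members (rows, by role) in the 12 libraries (columns), as log2(CPM + 0.1) minus the mean of the 3 EV libraries, with colours ending at -4 and 4. The CDX1 columns hold most of the deep blue cells, ACADSB, ACACB and DGAT2 among them, ACOX2 and ACSL5 are red in the EHF and EHF+CDX1 columns, and EV replicate 3 differs in shade from the other EV columns in many rows.

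Of the 6 members that passed the test in EHF+CDX1 against EV cells, 4 have an entry in the RefSeq promoter table (GRCh38.p14), and ACOX2 and CRAT have none. The 200 bases from 250 to 51 before the most upstream start listed there are shown for each, since these genes passed the test in EHF+CDX1 against EV cells, and letters in capitals mark the one match to a searched motif inside these stretches, the CDX letters read from the opposite strand in ACSL5. The stretches of ACSL5 and ACOT2 lie inside the gene spans given below, so the starts used there are internal ones. Those of PPARG and PDK4 lie upstream of the spans.
ACSL5 (chr10:112375018-112375217, plus strand): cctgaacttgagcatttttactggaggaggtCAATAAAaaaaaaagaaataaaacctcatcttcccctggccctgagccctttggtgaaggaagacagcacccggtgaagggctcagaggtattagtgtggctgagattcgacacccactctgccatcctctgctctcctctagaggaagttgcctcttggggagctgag
PPARG (chr3:12287118-12287317, plus strand): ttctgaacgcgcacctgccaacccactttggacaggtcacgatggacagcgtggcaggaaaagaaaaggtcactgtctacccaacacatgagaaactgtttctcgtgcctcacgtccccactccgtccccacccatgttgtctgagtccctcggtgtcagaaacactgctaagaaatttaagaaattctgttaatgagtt
PDK4 (chr7:95596567-95596766, minus strand): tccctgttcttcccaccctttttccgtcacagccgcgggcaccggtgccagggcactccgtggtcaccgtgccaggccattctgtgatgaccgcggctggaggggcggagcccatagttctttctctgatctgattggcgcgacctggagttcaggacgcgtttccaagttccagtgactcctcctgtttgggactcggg
ACOT2 (chr14:73568809-73569008, plus strand): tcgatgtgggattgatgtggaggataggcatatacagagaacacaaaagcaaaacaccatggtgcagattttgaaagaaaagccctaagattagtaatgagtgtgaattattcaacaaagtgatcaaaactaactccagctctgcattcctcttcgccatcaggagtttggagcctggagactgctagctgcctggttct
On both strands of the full 300-base windows the ETS letters CCGGAAG were found in 10.3% of 35116 windows of all genes and in 6 of 63 windows of 38 members (ACACB, ACOT7, CPT2, ECI1, PPARA and SLC25A20, with 3 matches in CPT2). The CDX letters TTTATNG were found in 9.73% of all windows and 4 member windows (ACADVL, ACSL5, PLIN2 and PPARG, the last at a start further downstream), and the SREBP letters TCACNCCAC in 1.13% and 2 (ACSL1 and PPARGC1B). The PPAR-RXR motif, a direct repeat of AGGTCA with 1 base between, was found in 0.0228% of all windows and in no member window. A match describes letters only. In the same build the genes lie at chr10:112374116-112428376 (ACSL5), chr3:58505136-58537190 (ACOX2), chr7:95583499-95596516 (PDK4), chr11:68754620-68844277 (CPT1A), chr9:129094794-129110793 (CRAT), chr3:12287368-12434344 (PPARG) and chr14:73567620-73575658 (ACOT2). On the opposite strand ACSL5 overlaps ZDHHC6, CRAT overlaps PTPA and PDK4 overlaps the antisense RNA PDK4-AS1. The strand setting of the counting is not given in the sources used here, so reads in those overlaps could belong to either gene.

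None of the 4 de novo synthesis genes passed the test in EHF or EHF+CDX1 against EV cells, where 5.68% and 7.3% of all genes rose and 2.65% and 3.13% fell. In CDX1 against EV cells 1 of the 4 fell, with 23.3% of all genes. ACACB, the acetyl-CoA carboxylase of the mitochondrial surface whose malonyl-CoA restrains CPT1, stood at 21.0, 19.0 and 14.2 CPM in EV, 27.8, 29.2 and 30.0 in EHF, 1.71, 1.44 and 2.01 in CDX1 and 14.53, 14.8 and 15.9 in EHF+CDX1 libraries. All CDX1 libraries lay below every other library. ACACB was 10.5-fold lower in CDX1 than in EV cells, a log2 fold change of -3.39 ± 0.17 (edgeR adjusted p = 2.98e-08), where ± is the standard error here and below, and 8.75-fold higher in EHF+CDX1 than in CDX1 cells, at 3.13 ± 0.17 (edgeR adjusted p = 1e-07). Its interaction was 2.44 ± 0.22 (edgeR adjusted p = 1.07e-05). ACLY, the ATP-citrate lyase, was at 459, 428 and 302 CPM in EV, 487, 488 and 474 in EHF, 254, 269.9 and 261 in CDX1 and 498, 495 and 472 in EHF+CDX1 libraries. Its CDX1 libraries were again the lowest, the difference from EV did not pass at -0.60 ± 0.13 (edgeR adjusted p = 0.367), and the rise from CDX1 to EHF+CDX1 cells did, at 0.90 ± 0.13 (edgeR adjusted p = 0.0116). DESeq2 lost that rise, with an adjusted p of 0.0937. ACLY fell in CDX1 against EV cells once EV replicate 3 was left out, with a log2 fold change of -0.76 and an edgeR adjusted p of 0.000808.

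FASN, the fatty acid synthase, stood at 2241, 2193 and 2622 CPM in EV, 2452, 2372 and 2439.6 in EHF, 3559.5, 3499 and 3534 in CDX1 and 2683, 2408 and 2358 in EHF+CDX1 libraries. The CDX1 values lay above all others, but the log2 fold change against EV of 0.59 ± 0.10 (edgeR adjusted p = 0.404) did not pass. The sign differed on the deposited quantile-normalized log2 RPKM values, where FASN averaged 7.98 in CDX1 and 8.38 in EV cells. Quantile normalization assigns values by rank within a library. FASN held the same value, 7.976, in all 3 CDX1 libraries, and 8.373 in all EHF and EHF+CDX1 libraries. That difference is therefore one of rank. On the TMM scale FASN passed as a rise with EV replicate 3 left out, at 0.67 with an edgeR adjusted p of 0.0496. ACACA, the cytosolic acetyl-CoA carboxylase, averaged between 237 ± 7.49 (SD, n = 3) CPM in CDX1 and 304 ± 71.1 in EV cells and passed in no comparison.

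Of the 4 elongation genes 1 passed the test, as a rise in CDX1 against EV cells, where 21.3% of all genes rose, and in 2 further comparisons given below. ELOVL5, which lengthens polyunsaturated chains, stood at 108, 102 and 159 CPM in EV, 125, 111 and 113 in EHF, 272, 262 and 260.1 in CDX1 and 108, 109 and 109 in EHF+CDX1 libraries. The CDX1 libraries lay above all the others. The EV range spanned those of EHF and EHF+CDX1 cells, which did not overlap each other. ELOVL5 rose 2.15-fold in CDX1 against EV cells, at 1.11 ± 0.14 (edgeR adjusted p = 0.00121), was lower by 2.44-fold in EHF+CDX1 than in CDX1 cells, at -1.29 ± 0.14 (edgeR adjusted p = 0.000208), and had an interaction of -1.21 ± 0.20 (edgeR adjusted p = 0.00443). These 3 calls were lost with limma, both on voom and on deposited values. ELOVL1 (70.4 to 90.1 CPM), ELOVL6 (71.0 to 82.0 CPM) and ELOVL7 (21.97 to 28.3 CPM), given here by the lowest and highest mean over the lines, passed in none, with log2 fold changes of at most 0.35 in size for ELOVL1, -0.21 for ELOVL6 and -0.37 for ELOVL7.

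No desaturase passed the test in any of the 6 comparisons. SCD, which makes oleate from stearate, was the most abundant member per length, with a mean log2 RPKM of 8.73 in EV cells, beside 8.38 for FASN. ACADVL at 6.82 and ACLY at 6.50 came next, and their order was the reverse in EV replicates 1 and 2. SCD counts stood at 1609.6, 1619 and 2518 CPM in EV, 2394, 2353 and 2303 in EHF, 1748, 2193 and 1930.2 in CDX1 and 2219, 2136 and 2173 in EHF+CDX1 libraries, and the EV libraries spanned the values of all 9 others. On the deposited log2 RPKM values, which are set by rank, its CDX1 libraries lay below every other library, at 7.77 to 8.08 against 8.49 to 9.12. FADS1, the Δ5-desaturase, was at 129, 131 and 199.97 CPM in EV libraries and 101 to 104, 93.1 to 104 and 94.8 to 99.7 in EHF, CDX1 and EHF+CDX1 libraries. All 9 of those lay below every EV library, but no difference passed, with log2 fold changes of -0.59 ± 0.14, -0.63 ± 0.14 and -0.65 ± 0.14 and edgeR adjusted p of 0.917, 0.299 and 0.608. FADS3 showed how far 1 library reached: it was at 82.1, 83.5 and 233 CPM in EV libraries and 63.9 to 69.7 CPM in EHF+CDX1 libraries, so its log2 fold change of -0.995 ± 0.32 became -0.31 without EV replicate 3. FADS2, the Δ6-desaturase, averaged from 17.2 ± 0.614 to 22.9 ± 0.721 (SD, n = 3) CPM in EHF+CDX1 and EHF cells.

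**Figure D2:**
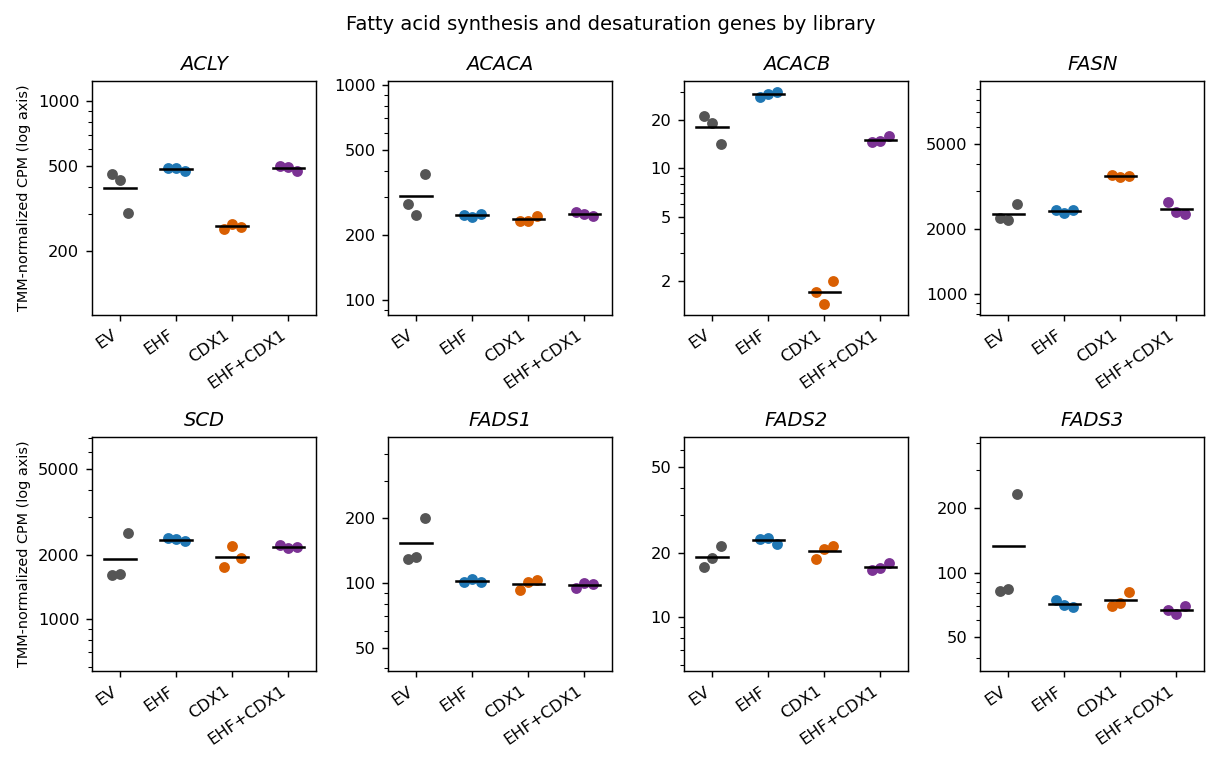
CPM on a log axis of the 4 de novo synthesis and 4 desaturation genes, with 1 point per library and a bar at the mean of the 3 libraries of a line. ACACB drops below 2.1 CPM in the CDX1 libraries alone, ACLY is lowest there, and the FADS3 mean of EV cells is set by 1 library at 233 CPM.

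Activation of fatty acids was marked by ACSL5, a synthetase of mitochondria and endoplasmic reticulum that the intestinal epithelium expresses strongly. It stood at 13.9, 12.5 and 55.5 CPM in EV, 229, 212 and 214 in EHF, 68.4, 72.4 and 76.1 in CDX1 and 109, 112 and 115 in EHF+CDX1 libraries. The 4 lines did not overlap, with EV lowest and EHF highest, but EV replicate 3 was nearer the CDX1 libraries than the other EV libraries. ACSL5 rose 7.88-fold in EHF cells, at 2.98 ± 0.45 (edgeR adjusted p = 0.00136), and 4.04-fold in EHF+CDX1 cells, at 2.02 ± 0.43 (edgeR adjusted p = 0.0179). In CDX1 cells the rise was 2.61-fold, at 1.38 ± 0.43 (edgeR adjusted p = 0.0425), and the interaction was -2.35 ± 0.60 (edgeR adjusted p = 0.0126). With EV replicate 3 left out the log2 fold changes were 4.04, 3.08 and 2.45 and the interaction -3.41. Fitted to the libraries of the compared lines alone, neither the rise in EHF nor that in EHF+CDX1 cells passed, with edgeR adjusted p of 0.051 and 0.155. The rise in EHF+CDX1 cells was lost without either of EHF+CDX1 replicates 2 and 3, with edgeR adjusted p of 0.0508 to 0.0532. The rise in CDX1 cells was lost without any 1 of EV replicates 1 and 2 and the 3 CDX1 libraries, with edgeR adjusted p of 0.0765 to 0.12.

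ACSL4, which prefers arachidonate, stood at 55.8, 52.97 and 49.0 CPM in EV, 90.9, 91.4 and 90.8 in EHF, 165, 125 and 137 in CDX1 and 79.7, 75.6 and 82.0 in EHF+CDX1 libraries, so the lines did not overlap. It rose 2.71-fold in CDX1 cells, at 1.44 ± 0.10 (edgeR adjusted p = 3.9e-06), and was 1.80-fold lower in EHF+CDX1 than in CDX1 cells, at -0.85 ± 0.10 (edgeR adjusted p = 0.00922). That fall was lost when libraries were scaled by totals, with DESeq2 and with limma. In EHF cells ACSL4 was at 0.79 ± 0.10 (edgeR adjusted p = 0.0909), short of the test, and its interaction was -1.64 ± 0.15 (edgeR adjusted p = 2.67e-05). ACSL1 (27.2 to 30.8 CPM) and ACSL3 (147 to 187 CPM) passed in no comparison, with a largest log2 fold change of 0.18 and -0.35.

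The carnitine shuttle moved in both directions. CPT1A, the outer membrane transferase that is the usual control point of mitochondrial oxidation, stood at 75.4, 79.0 and 61.3 CPM in EV, 147, 147 and 141 in EHF, 53.3, 47.6 and 56.99 in CDX1 and 126, 122 and 126 in EHF+CDX1 libraries. Both lines with the EHF plasmid lay above both lines without it. CPT1A rose 2.02-fold in EHF cells, at 1.01 ± 0.10 (edgeR adjusted p = 0.00314), and 2.38-fold from CDX1 to EHF+CDX1 cells, at 1.25 ± 0.11 (edgeR adjusted p = 3.06e-05). In EHF+CDX1 against EV cells it was at 0.80 ± 0.10 (edgeR adjusted p = 0.0718), and its interaction of 0.24 ± 0.15 (edgeR adjusted p = 1) did not pass. CRAT, the carnitine acetyltransferase, stood at 58.8, 68.0 and 56.8 CPM in EV, 22.7, 24.1 and 23.1 in EHF, 47.9, 56.4 and 44.2 in CDX1 and 28.9, 29.2 and 29.9 in EHF+CDX1 libraries. Here both EHF-expressing lines lay below both others. CRAT was 2.63-fold lower in EHF cells, at -1.39 ± 0.11 (edgeR adjusted p = 4.21e-05), and 2.09-fold lower in EHF+CDX1 cells, at -1.06 ± 0.11 (edgeR adjusted p = 0.00132). All alternatives run kept these 2 calls and that of CPT1A in EHF cells.

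CRAT was also lower in EHF+CDX1 than in CDX1 cells, at -0.76 ± 0.10 (edgeR adjusted p = 0.0459), but that call was lost without any 1 of CDX1 replicate 2 and the 3 EHF+CDX1 libraries, with edgeR adjusted p of 0.0766 to 0.17, and with DESeq2, limma or scaling by totals. CPT2, the inner membrane transferase, stood at 32.4, 35.2 and 19.7 CPM in EV, 17.4, 17.2 and 17.6 in EHF, 6.48, 9.22 and 9.44 in CDX1 and 19.5, 17.2 and 21.2 in EHF+CDX1 libraries. It was 3.46-fold lower in CDX1 than in EV cells, at -1.79 ± 0.21 (edgeR adjusted p = 8.41e-05), and its interaction was 1.93 ± 0.29 (edgeR adjusted p = 0.000701). In EHF cells CPT2 was at -0.73 ± 0.20 (edgeR adjusted p = 0.504), and without EV replicate 3 it fell, at -0.96 with an edgeR adjusted p of 0.00863. SLC25A20, the carnitine carrier, stood at 7.54, 7.57 and 3.31 CPM in EV and 11.1, 14.48 and 11.9 in CDX1 libraries. It rose in CDX1 cells at 1.05 ± 0.25 (edgeR adjusted p = 0.0311), a call lost without EV replicate 3 or CDX1 replicate 2, with edgeR adjusted p of 0.0995 and 0.0886.

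**Figure D3:**
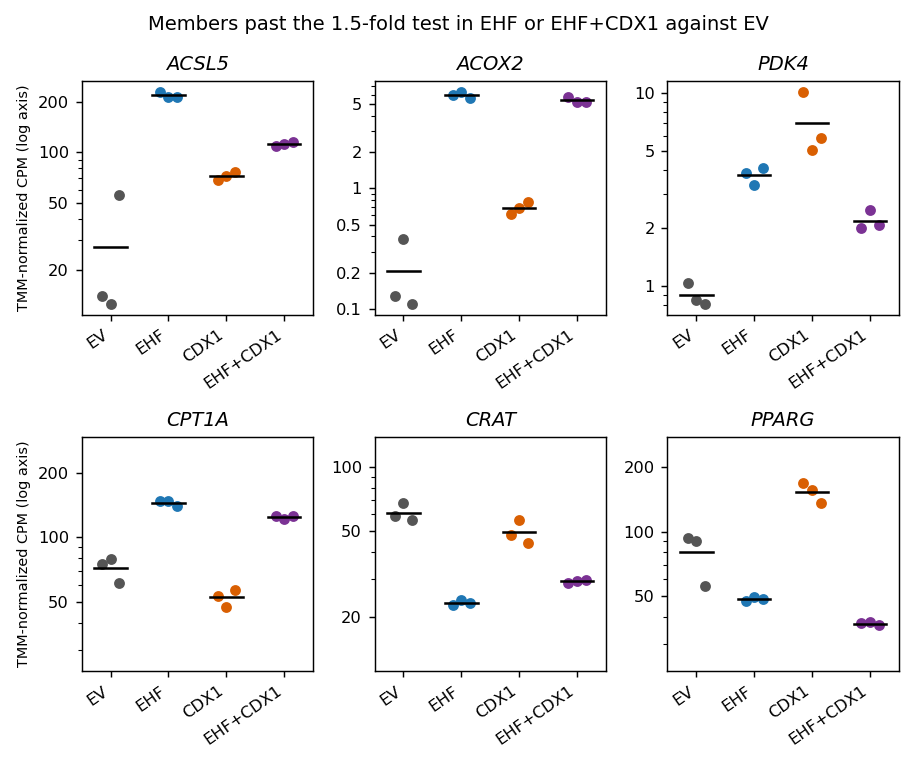
CPM on a log axis of 6 members that passed the 1.5-fold test in EHF or EHF+CDX1 against EV cells, with 1 point per library and a bar at the mean of a line. CPT1A is high and CRAT low in both EHF-expressing lines, ACOX2 is near 6 CPM there and below 1 CPM in the others, and PDK4 is highest in CDX1 cells.

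Of the 11 mitochondrial oxidation genes, 7 fell and none rose in CDX1 against EV cells, where 23.3% of all genes fell (ACADS, ACADSB, HADH, ECHS1, ECI1, ACAA2 and DECR1), with a median log2 fold change over the list of -1.02. In EHF+CDX1 against CDX1 cells 5 rose and none fell (ACADS, ACADSB, HADH, ECHS1 and ACAA2), with a median of 0.61, where 22.3% of all genes rose. No gene of this list passed in EHF or EHF+CDX1 against EV cells, where the medians were -0.18 and -0.27. The interaction was positive for 6 (ACADS, ACADSB, HADH, ECHS1, ECI1 and ACAA2) and for 20.2% of all genes. These shares were not tested against each other. Without EV replicate 3, CDX1 against EV gave 8 falls, that of HADHB added, and 1 rise, of ACADVL, and DECR1 fell in both EHF and EHF+CDX1 cells, at log2 -0.98 and -1.07 with edgeR adjusted p of 0.0033 and 0.000512.

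ACADSB, the dehydrogenase of short branched acyl chains, showed the largest fall of the list. It stood at 38.3, 36.7 and 24.5 CPM in EV, 25.6, 26.1 and 25.2 in EHF, 3.37, 4.75 and 4.27 in CDX1 and 22.5, 22.8 and 21.3 in EHF+CDX1 libraries, and the CDX1 libraries lay far below all others. ACADSB was 8.02-fold lower in CDX1 than in EV cells, at -3.003 ± 0.18 (edgeR adjusted p = 1.22e-07), and 5.39-fold higher in EHF+CDX1 than in CDX1 cells, at 2.43 ± 0.17 (edgeR adjusted p = 1.12e-06). Its interaction was 2.80 ± 0.24 (edgeR adjusted p = 5.46e-06). HADH, the second dehydrogenase for short and medium chains, stood at 36.4, 34.8 and 15.9 CPM in EV, 24.8, 26.05 and 25.9 in EHF, 6.64, 7.38 and 5.61 in CDX1 and 25.2, 26.9 and 27.4 in EHF+CDX1 libraries. Its EV replicate 3 lay between the other EV and the CDX1 libraries. HADH was 4.42-fold lower in CDX1 cells, at -2.14 ± 0.25 (edgeR adjusted p = 5.76e-05), and 4.04-fold higher in EHF+CDX1 than in CDX1 cells, at 2.02 ± 0.25 (edgeR adjusted p = 0.000125).

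ACAA2, the thiolase of the last step, stood at 10.5, 10.4 and 2.26 CPM in EV, 11.4, 11.74 and 10.8 in EHF, 2.06, 2.10 and 2.42 in CDX1 and 14.7, 13.9 and 14.8 in EHF+CDX1 libraries, so that EV replicate 3 fell within the CDX1 range. ACAA2 was lower in CDX1 than in EV cells at -1.78 ± 0.43 (edgeR adjusted p = 0.0101), or -2.25 without EV replicate 3, and lost this call with limma. Against CDX1 cells, EHF+CDX1 cells held 6.59-fold more, at 2.72 ± 0.43 (edgeR adjusted p = 0.00042), the largest rise of the list in that comparison. ECHS1, the short-chain hydratase, stood at 70.9, 73.7 and 32.7 CPM in EV, 52.1 to 53.8 in EHF, 22.2, 27.2 and 23.8 in CDX1 and 52.4 to 53.7 in EHF+CDX1 libraries. It fell in CDX1 against EV cells at -1.27 ± 0.23 (edgeR adjusted p = 0.00442), a call lost with limma. Its rise from CDX1 to EHF+CDX1 cells, at 1.12 ± 0.23 (edgeR adjusted p = 0.0145), was lost without CDX1 replicate 1, with an edgeR adjusted p of 0.0537, and with DESeq2 and limma.

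Among the other genes of the list that fell in CDX1 cells, ACADS, the short-chain dehydrogenase, was at 4.60, 8.34 and 6.28 CPM in CDX1 and 20.1, 20.7 and 13.6 in EV libraries, at -1.50 ± 0.22 (edgeR adjusted p = 0.000632). ECI1, an isomerase for unsaturated chains, was at 35.5, 39.2 and 41.0 CPM in CDX1 and 80.4, 79.1 and 68.5 in EV libraries, at -0.98 ± 0.09 (edgeR adjusted p = 0.000399). DECR1, the dienoyl-CoA reductase, was at 11.8, 14.1 and 16.2 CPM in CDX1 and 35.1, 31.7 and 18.8 in EV libraries. It fell at -1.02 ± 0.20 (edgeR adjusted p = 0.0172), a call lost without EV replicate 1, EV replicate 2 or CDX1 replicate 1, with edgeR adjusted p of 0.0505 to 0.0804. Of the enzymes for long chains none passed in any comparison. HADHA and HADHB, the subunits of the trifunctional protein, averaged 151 ± 0.971 and 33.4 ± 1.70 (SD, n = 3) CPM in CDX1 and 166 ± 17.3 and 50.8 ± 8.43 CPM in EV cells, with log2 fold changes of -0.14 ± 0.09 and -0.60 ± 0.11. ACADVL, the very long chain dehydrogenase, stood at 224, 221 and 488 CPM in EV and 411, 390.1 and 400.0 in CDX1 libraries. ACADM, the medium-chain dehydrogenase, averaged from 23.3 ± 0.693 in CDX1 to 39.2 ± 0.534 in EHF cells and passed in none.

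**Figure D4:**
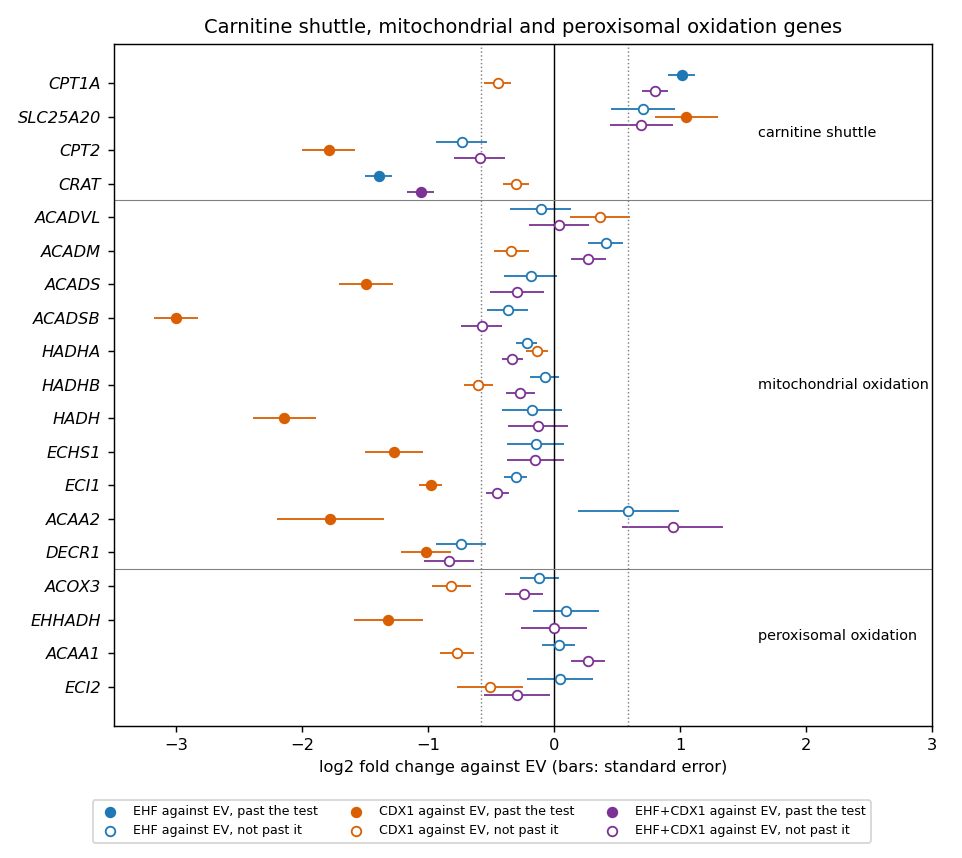
Log2 fold changes against EV, with standard error bars, of 19 carnitine shuttle, mitochondrial and peroxisomal oxidation genes, filled where the 1.5-fold test was passed, with dotted lines at 1.5-fold. The CDX1 points of ACADSB, HADH, CPT2 and ACAA2 lie furthest left, at -3.003, -2.14, -1.79 and -1.78, while the EHF+CDX1 points of those genes lie between -0.59 and 0.94.

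Peroxisomal oxidation held the largest rise among members with reads in every EV library. ACOX2, the oxidase of branched chains and bile acid precursors, stood at 0.129, 0.379 and 0.110 CPM in EV, 5.90, 6.34 and 5.62 in EHF, 0.613, 0.682 and 0.772 in CDX1 and 5.68, 5.22 and 5.25 in EHF+CDX1 libraries. The EV values rest on 3, 8 and 6 reads and did not count toward the filter, and the lines separate into EV, then CDX1, then the EHF-expressing lines. ACOX2 rose 32.4-fold in EHF cells, at 5.02 ± 0.32 (edgeR adjusted p = 1.09e-06), and 29.4-fold in EHF+CDX1 cells, at 4.88 ± 0.32 (edgeR adjusted p = 1.11e-06). In CDX1 cells the rise was 3.76-fold, at 1.91 ± 0.36 (edgeR adjusted p = 0.00221), and the interaction was -2.05 ± 0.42 (edgeR adjusted p = 0.00475). Without EV replicate 2 the folds were 49.8, 45.1 and 5.77 and the interaction -2.67. On the deposited log2 RPKM values limma lost the call in CDX1 cells and the interaction. From CDX1 to EHF+CDX1 cells ACOX2 rose 7.81-fold, at 2.97 ± 0.26 (edgeR adjusted p = 4.15e-06), and between EHF and EHF+CDX1 cells the log2 difference was -0.14 ± 0.23.

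The other peroxisomal members were lowest in CDX1 cells. EHHADH, the bifunctional enzyme, stood at 14.4, 12.5 and 6.49 CPM in EV, 13.2, 11.03 and 11.2 in EHF, 4.21, 5.68 and 3.40 in CDX1 and 10.1, 10.5 and 12.6 in EHF+CDX1 libraries. It fell in CDX1 cells at -1.32 ± 0.27 (edgeR adjusted p = 0.00757) and was higher in EHF+CDX1 than in CDX1 cells at 1.32 ± 0.27 (edgeR adjusted p = 0.00842), and both calls were lost with limma. ACAA1, the peroxisomal thiolase, stood at 43.7, 50.4 and 32.3 CPM in EV, 42.5, 43.1 and 43.5 in EHF, 25.6, 24.7 and 23.5 in CDX1 and 47.6, 53.1 and 51.1 in EHF+CDX1 libraries. It rose from CDX1 to EHF+CDX1 cells at 1.04 ± 0.13 (edgeR adjusted p = 0.00208) and its interaction was 1.01 ± 0.19 (edgeR adjusted p = 0.0184), while CDX1 against EV was at -0.77 ± 0.13 (edgeR adjusted p = 0.0625). ACOX3, another branched-chain oxidase, came close in CDX1 cells, at -0.82 ± 0.15 (edgeR adjusted p = 0.0525), with mean levels from 10.1 CPM there to 17.7 in EV cells. The isomerase ECI2 ranged from 21.4 ± 1.74 in CDX1 to 31.5 ± 1.86 (SD, n = 3) CPM in EHF cells and passed in none. With EV replicate 3 left out, ACAA1 and ECI2 both fell in CDX1 cells, at -0.94 and -0.85, with edgeR adjusted p of 6.98e-05 and 0.00175.

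The PPAR receptors were highest in CDX1 cells. PPARG, the adipogenic receptor that colonocytes also express, stood at 93.5, 90.6 and 55.6 CPM in EV, 47.7, 49.6 and 48.7 in EHF, 169, 156 and 136 in CDX1 and 37.4, 37.7 and 36.6 in EHF+CDX1 libraries. The 4 lines did not overlap. PPARG was 2.14-fold lower in EHF+CDX1 than in EV cells, at -1.099 ± 0.16 (edgeR adjusted p = 0.0118), a call lost with DESeq2, with limma and with the 6 libraries of those lines alone, and kept without each single library. In EHF cells it was at -0.71 ± 0.16 (edgeR adjusted p = 0.475), and without EV replicate 3 it fell, at -0.92 with an edgeR adjusted p of 0.000375. In CDX1 against EV cells it rose 1.93-fold, at 0.95 ± 0.16 (edgeR adjusted p = 0.0151), a call lost with DESeq2, limma, the libraries of those lines alone or scaling by totals. From CDX1 to EHF+CDX1 cells PPARG was 4.13-fold lower, at -2.05 ± 0.17 (edgeR adjusted p = 4.64e-06), and its interaction was -1.33 ± 0.23 (edgeR adjusted p = 0.00369).

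PPARA, the receptor that drives oxidation genes in liver, stood at 19.9, 21.2 and 21.7 CPM in EV, 21.9 to 23.7 in EHF, 39.9, 42.1 and 37.9 in CDX1 and 20.4 to 23.6 in EHF+CDX1 libraries. It rose 1.91-fold in CDX1 cells, at 0.93 ± 0.09 (edgeR adjusted p = 0.000835), and was 1.80-fold lower in EHF+CDX1 than in CDX1 cells, at -0.85 ± 0.09 (edgeR adjusted p = 0.00458). Both calls were lost when libraries were scaled by totals. PPARGC1B, a PPAR coactivator, took the opposite course, with 28.6, 27.4 and 25.8 CPM in EV, 45.4, 41.3 and 40.9 in EHF, 18.3, 13.6 and 15.5 in CDX1 and 41.5, 36.8 and 36.1 in EHF+CDX1 libraries. It rose 2.42-fold from CDX1 to EHF+CDX1 cells, at 1.27 ± 0.12 (edgeR adjusted p = 4.76e-05). Its fall in CDX1 against EV cells, at -0.79 ± 0.11 (edgeR adjusted p = 0.0351), was lost without any 1 of EV replicates 1 and 2 and CDX1 replicates 2 and 3, with edgeR adjusted p of 0.054 to 0.163. PPARGC1A had 0 to 4 reads in each library outside EHF+CDX1 and 4, 19 and 3 reads there, and was not tested.

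PDK4, the kinase that shuts pyruvate dehydrogenase when cells burn fat, was highest in CDX1 cells. It stood at 1.03, 0.852 and 0.809 CPM in EV, 3.88, 3.36 and 4.11 in EHF, 10.2, 5.08 and 5.84 in CDX1 and 1.99, 2.49 and 2.07 in EHF+CDX1 libraries, and the lines did not overlap. PDK4 rose 7.92-fold in CDX1 cells, at 2.98 ± 0.28 (edgeR adjusted p = 5.75e-06), and 4.25-fold in EHF cells, at 2.09 ± 0.28 (edgeR adjusted p = 0.00107). limma on voom values missed the latter, with an adjusted p of 0.0501. In EHF+CDX1 cells it was 2.46-fold above EV, at 1.30 ± 0.29 (edgeR adjusted p = 0.0404), but that call was lost without any 1 of the 6 libraries of those lines, with edgeR adjusted p of 0.0524 to 0.143, and with DESeq2 and limma. Against CDX1 cells EHF+CDX1 cells were 3.21-fold lower, at -1.68 ± 0.26 (edgeR adjusted p = 0.000813), and the interaction of -3.77 ± 0.38 (edgeR adjusted p = 1.6e-05) was the largest in size among the members that passed. FABP5, a fatty acid binding protein, stood at 72.9, 41.3 and 16.1 CPM in the EV libraries, while the means of the 4 lines lay between 37.5 and 45.4 CPM. PLIN2, which coats lipid droplets, averaged 31.1 ± 2.36 and 31.8 ± 0.384 (SD, n = 3) CPM in CDX1 and EHF+CDX1 and 19.9995 ± 5.82 and 18.9 ± 1.25 CPM in EV and EHF cells. Neither FABP5 nor PLIN2 passed in any comparison.

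Among the thioesterases, which free fatty acids from CoA, ACOT2 had reads mainly in EHF+CDX1 cells. This mitochondrial enzyme had 0 reads in all EV libraries, 0, 0 and 1 in EHF, 0, 0 and 2 in CDX1 and 35, 28 and 7 in EHF+CDX1 libraries, or 0.611, 0.531 and 0.484 CPM. The EHF+CDX1 mean of 0.542 CPM was at least 3.82-fold higher than EV, taking 3 counts in the EV library where they weigh most (0.142 CPM). The ratio to EHF cells was 82.4 (95% counting interval 14.3 to 3300) and to CDX1 cells 34.9 (9.31 to 294). ACOT2 met the filter of 0.5 CPM in 3 libraries only through the EHF+CDX1 libraries, where it had to be higher, so its calls in the 3 comparisons of those cells are a description and no p is given. Leaving out 1 of those libraries put it below the filter. The neighbouring gene ACOT1 is nearly identical in sequence and had 10, 5 and 4 reads in EHF+CDX1 and 2, 3 and 2 in CDX1 libraries, so the split of reads between them is uncertain. ACOT7, a cytosolic thioesterase, stood at 176, 173 and 69.8 CPM in EV, 158 to 166 in EHF, 67.7, 59.4 and 63.5 in CDX1 and 137 to 143 in EHF+CDX1 libraries, with EV replicate 3 close to the CDX1 values. It fell in CDX1 cells at -1.13 ± 0.26 (edgeR adjusted p = 0.0191), a call lost without EV replicate 1, EV replicate 2 or CDX1 replicate 2, with edgeR adjusted p of 0.0582 to 0.0778. It was higher in EHF+CDX1 than in CDX1 cells at 1.14 ± 0.26 (edgeR adjusted p = 0.0191), a call lost without CDX1 replicate 2, with an edgeR adjusted p of 0.0584.

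Both of the 2 triglyceride synthesis genes fell in CDX1 against EV cells, where 23.3% of all genes fell. DGAT2, which joins the last acyl chain to diglyceride at the endoplasmic reticulum and droplets, stood at 10.0, 11.3 and 27.3 CPM in EV, 8.19, 9.87 and 9.71 in EHF, 1.18, 2.58 and 2.19 in CDX1 and 8.75, 10.1 and 9.05 in EHF+CDX1 libraries. It was 8.30-fold lower in CDX1 than in EV cells, at -3.05 ± 0.38 (edgeR adjusted p = 5.32e-05), and 5.43-fold lower without EV replicate 3. From CDX1 to EHF+CDX1 cells it rose 4.71-fold, at 2.24 ± 0.38 (edgeR adjusted p = 0.000919). DGAT1, which catalyses the same step, stood at 116, 120.1 and 163 CPM in EV, 83.9 to 86.7 in EHF, 63.8, 75.5 and 66.8 in CDX1 and 83.5 to 87.2 in EHF+CDX1 libraries, so all 9 libraries of the other lines lay below every EV library. It fell in CDX1 cells at -0.95 ± 0.12 (edgeR adjusted p = 0.00389), and EHF and EHF+CDX1 cells were at -0.64 ± 0.12 and -0.64 ± 0.12, short of the test.

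The log2 fold change with EHF differed between CDX1-carrying and other cells for 18 of 46 members, 11 positive and 7 negative, where 20.2% of all genes were positive and 18% negative, so the members were called about as often as all genes. Of the 11 with a positive interaction, 6 belonged to mitochondrial oxidation and 2 to triglyceride synthesis, and the others were ACACB, CPT2 and ACAA1. For these 11 genes the log2 fold change of EHF over EV cells lay between -0.82 and 0.69 and did not pass, while EHF+CDX1 over CDX1 cells lay between 0.31 and 3.13. The 7 with a negative interaction were ELOVL5, ACSL4, ACSL5, ACOX2, PPARA, PPARG and PDK4. All 18 but ACAA1 had passed the test in CDX1 against EV cells, with which the interaction shares the EV and CDX1 libraries. Between EHF+CDX1 and EHF cells the median log2 difference over the 46 members was -0.11. The lowest were those of ACSL5 and ACACB, at -0.96 and -0.95, and the highest after ACOT2 was that of PLIN2, at 0.75. For each of these the libraries of the EHF and EHF+CDX1 lines did not overlap, but the 1.5-fold test was not passed. Against no change in place of 1.5-fold 4 of the 46 passed, ACOT2 among them, as did 1550 of 15853 genes.

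**Figure D5:**
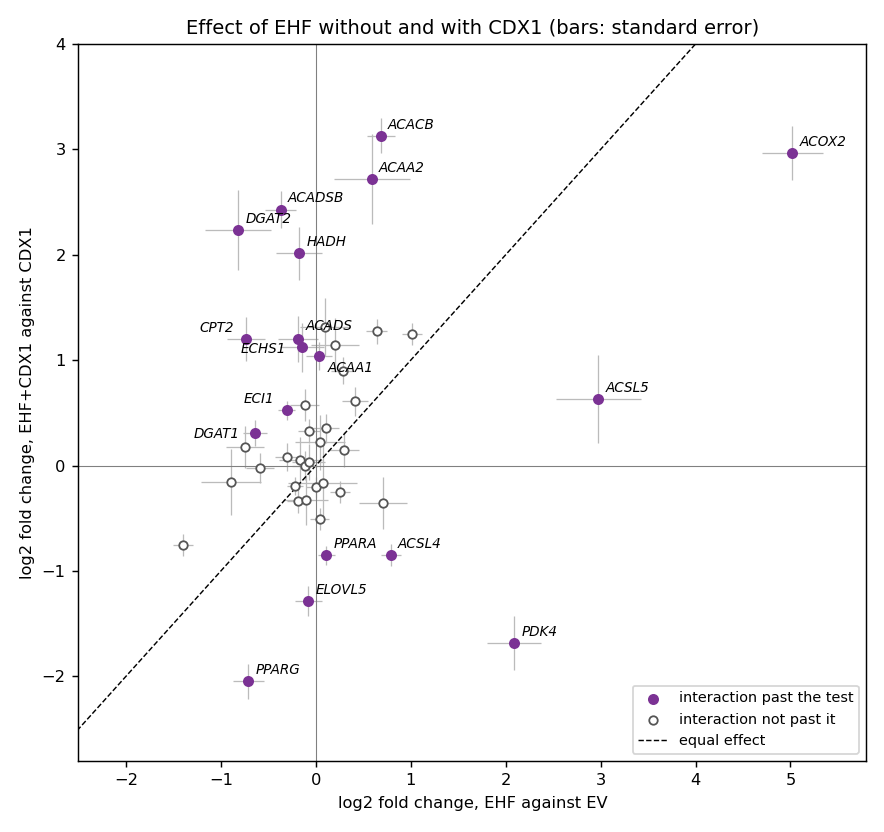
Log2 fold change of EHF over EV cells (x axis) against that of EHF+CDX1 over CDX1 cells (y axis) for 45 members, with standard error bars, filled where the interaction passed the test, and a dashed line of equal effect. ACACB, ACAA2, ACADSB, DGAT2 and HADH lie far above the line, and PDK4 and ACSL5 far below it.

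Of 83 further genes of the pathway, 69 were tested, and 4 rose and 2 fell in EHF+CDX1 against EV cells, where 7.3% of all genes rose and 3.13% fell. The fits of these further genes were not repeated without EV replicate 3. None of 19 further synthesis and elongation genes passed there. Of 13 mitochondrial genes ACAD10, an acyl-CoA dehydrogenase, fell, from 36.6, 32.8 and 68.9 CPM in EV to 19.3, 15.8 and 17.2 in EHF+CDX1 libraries, at -1.41 ± 0.24 (edgeR adjusted p = 0.00798). The size of that fall rests in part on EV replicate 3, at 68.9 CPM. Of 13 peroxisomal genes 2 rose and 1 fell. AMACR, the racemase of branched chains, rose from 0.560, 0.710 and 0.643 to 2.498, 2.11 and 2.3496 CPM, at 1.86 ± 0.25 (edgeR adjusted p = 0.00099), and stood at 0.638, 0.693 and 0.562 in EHF libraries. CROT, the medium-chain carnitine transferase, had 0 reads in all EV libraries and 0.559, 0.987 and 0.484 CPM in EHF+CDX1 libraries, at least 4.76-fold higher on the same limit as ACOT2, and like ACOT2 it met the filter only through the EHF+CDX1 libraries. Its place among the rises counted here was thus fixed by the filter. DECR2, the peroxisomal dienoyl-CoA reductase, fell from 22.1, 22.01 and 27.4 to 8.0002, 9.60 and 9.33 CPM, at -1.41 ± 0.14 (edgeR adjusted p = 0.000207).

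Of 24 uptake, storage and lipolysis genes 2 rose in EHF+CDX1 against EV cells. MGLL, the monoglyceride lipase, stood at 2.84, 2.60 and 8.16 CPM in EV, 27.5, 30.1 and 31.0 in EHF, 158, 183 and 143 in CDX1 and 43.3, 39.8 and 44.02 in EHF+CDX1 libraries, at 3.14 ± 0.33 (edgeR adjusted p = 6.93e-05). ANGPTL4, a secreted inhibitor of lipoprotein lipase and a known PPAR target, rose from 2.02, 2.46 and 5.77 to 11.3, 19.0 and 16.8 CPM, at 2.12 ± 0.35 (edgeR adjusted p = 0.00341). EV replicate 3 held the highest EV value of MGLL and of ANGPTL4, at 8.16 and 5.77 CPM. Neither fold was refitted without it. In EHF against EV cells 4 of the 69 rose and 2 fell, with 5.68% and 2.65% of all genes. In CDX1 against EV cells 9 rose and 24 fell, with a median of -0.40, where 21.3% of all genes rose and 23.3% fell, and 12 of these falls were among the uptake, storage and lipolysis genes. From CDX1 to EHF+CDX1 cells 20 rose and 7 fell, where 22.3% of all genes rose and 18.7% fell, and 6 of 13 peroxisomal genes rose with none falling. The 13 include CROT, which had to be higher in EHF+CDX1 cells to meet the filter. The interaction was positive for 14 and negative for 9, with 20.2% and 18% of all genes.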

How the data were processed

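The authors aligned reads to GRCh38/hg38 with Subread (2.0.0), counted uniquely mapped reads on RefSeq exons with featureCounts (2.0.0) and deposited raw counts of 28395 genes, 550 without a symbol, per library, with log2 RPKM values, quantile-normalized with limma voom, of 15853 genes. Versions are from the submitters' processing notes. From the counts, a filter of 0.5 CPM in 3 libraries retained 15853 genes and removed 0.0585% of reads. With edgeR 4.0.16 (R 4.3.3) a quasi-likelihood model of 4 lines with TMM factors was fitted to 12 libraries. Rises and falls are calls of glmTreat against 1.5-fold (adjusted p of 0.05, Benjamini-Hochberg), with log2 fold changes and standard errors from the quasi-likelihood F test. limma 3.58.1 (voom with quantile normalization, and the deposited log2 RPKM values), DESeq2 1.42.0, RLE factors, library totals, all genes with 1 count, a test against no change, the compared libraries alone, a replicate block and each library left out were alternatives. On counts simulated for 15853 genes, edgeR recovered 82% of 200 genes changed 4-fold in EHF+CDX1 against EV and 73.5% for the interaction, with 0 false calls. That simulation gave each gene 1 mean, changed only those 200 genes and set no library apart, so it does not measure the error in these data. Genes past the test in EHF or EHF+CDX1 against EV are given in every library; in other comparisons the largest rise and fall of each role are named, with up to 3 genes past the test of each further pathway list, and other members were described after their values were seen. Members and lists were chosen with earlier results of these data known.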

Additional observations from a re-analysis of the deposited data

Results flagged for a closer look

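The effect of EHF differed between cells with and without CDX1 for 18 members, by the interaction test against 1.5-fold in edgeR, 11 positive and 7 negative, about as often as all genes tested (20.2% and 18%). The log2 differences, effect in CDX1-carrying cells minus effect in the others, were 2.44 for ACACB, 2.80 for ACADSB, 3.05 for DGAT2, 2.19 for HADH, 2.13 for ACAA2, 1.93 for CPT2, 1.39 for ACADS, 1.27 for ECHS1, 1.01 for ACAA1, 0.95 for DGAT1 and 0.83 for ECI1. They were -3.77 for PDK4, -2.35 for ACSL5, -2.05 for ACOX2, -1.64 for ACSL4, -1.33 for PPARG, -1.21 for ELOVL5 and -0.96 for PPARA. Without EV replicate 3 the value of ACSL5 was -3.41 and that of DGAT2 2.44, and without EV replicate 2 that of ACOX2 was -2.67. The call of ECHS1 was lost without EV replicate 1 or 2, EHF replicate 3 or CDX1 replicate 1 or 3, with edgeR adjusted p of 0.0509 to 0.066. The call of ECI1 was lost without EV replicate 1 or 2, EHF replicate 1, CDX1 replicate 1 or EHF+CDX1 replicate 2, with edgeR adjusted p of 0.0549 to 0.076, and that of DGAT1 without CDX1 replicate 1, at 0.0551. limma on voom values lost the calls of ACAA1, ACAA2, ACADS, ECHS1, ELOVL5, PPARA and PPARG, and DESeq2 those of ACAA1, DGAT1, ECHS1 and ECI1. CDX1 itself averaged 525 CPM in CDX1 and 5419 CPM in EHF+CDX1 cells, and EHF, in the cells that the EHF lines are set against, 299 CPM in EV and 12.3 CPM in CDX1 cells. Their part in these differences was not tested.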

How the results depend on the processing

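Against no change in place of 1.5-fold, the members called numbered 15 for EHF against EV, 34 for CDX1, 19 for EHF+CDX1, 4 for EHF+CDX1 against EHF and 30 for the interaction, since this test asks for less, against 5, 22, 6, 1 and 18. Of all 15853 genes it called 4770, 10921, 5328, 1550 and 9279, in the same order. On the deposited log2 RPKM values limma called 12 for CDX1 against EV and 11 for the interaction. With only the compared libraries, a fit the interaction does not allow, EHF+CDX1 gave 3 against EV and 4 against EHF. Leaving out 1 library gave 5 to 8 for EHF against EV, 18 to 27 for CDX1, 3 to 6 for EHF+CDX1, 0 to 1 for EHF+CDX1 against EHF, 20 to 22 against CDX1 and 15 to 23 for the interaction, the highest counts for EHF, CDX1 and the interaction coming without EV replicate 3. The lowest counts of EHF+CDX1 against EV came without EHF+CDX1 replicate 2 or 3, and the 0 came whenever 1 EHF+CDX1 library was left out, which put ACOT2 below the filter. With a replicate block the counts were 5, 22, 6, 1, 22 and 18, the same as without it, and no single call was lost. Same-numbered libraries did not visibly deviate together (18 correlations from -0.0653 to 0.0802), and 4 of 12 libraries lay closest to one of their own number. A small effect shared by libraries of 1 number could be missed this way, and the labels do not say whether the numbers pair. Scaling by library totals moved the share of rises among all calls from 47.8% to 30.8% in CDX1 against EV, from 54.3% to 74.2% in EHF+CDX1 against CDX1 and from 52.9% to 69.2% for the interaction. DESeq2 called 16 members in CDX1 against EV and 4 in EHF+CDX1 against EV. No call of a single member changed direction under any alternative run, and the cause of the lost calls was not tested.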
